A study of Mus musculus with 3 samples.

Results

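The Reg family lectins are small secreted proteins built around a C-type lectin domain, and 5 of their genes, *Reg1*, *Reg3a*, *Reg3b*, *Reg3g* and *Reg4*, were followed here across the epithelial cell types of the mouse small intestine. They were taken by symbol from the 27998 genes of the count matrices. *Reg3b* and *Reg3g* encode bactericidal lectins that enterocytes and Paneth cells secrete into the mucus, where they help to keep bacteria away from the epithelial surface. Their transcription is known to be induced by IL-22 through Stat3 and by microbial signals through Myd88. *Reg3a* encodes a further lectin of the pancreatitis-associated protein group, *Reg1* a lectin known for its induction in regenerating pancreas and damaged gut mucosa, and *Reg4* a lectin known from enteroendocrine cells, from deep secretory cells of the crypt and from intestinal tumours.

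Epithelial cells of the small intestine had been sorted by EpCAM, a surface protein of epithelia, and their RNA read cell by cell in droplets, with 1 library and 1 mouse for each of 3 genotypes. All mice were C57BL/6, received tamoxifen in 2 doses of 2 mg at an age of 7 to 8 weeks, the WT mouse included, and were analysed on day 21 (WT), day 29 (LApc) and day 21 (LApcL) after injection. LApc was Lgr5-CreERT2;Apc fl/fl, so that Cre was driven by the locus of the stem cell gene *Lgr5* and only stem cells and the cells made from them could lose *Apc*, a brake on Wnt signalling. LApcL carried Lef1 fl/fl in addition, where *Lef1* stands for a DNA-binding partner of beta-catenin at the end of that pathway. The paper states that the Lef1 fl/fl line had a mixed background and was backcrossed to C57BL/6 before use. Any of that background still left would go with LApcL alone. No library had a replicate, so no test was possible and no p-value is given. Genotype cannot be told apart from mouse and library, nor, for LApc, from day. The kit version may differ between libraries as well. Intervals are exact 95% intervals that cover counting error only.

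The libraries held 79696291 to 191509615 unique molecular identifiers (UMIs, each standing for 1 captured RNA molecule), and 10138 (WT), 9601 (LApc) and 14394 (LApcL) cells were kept, with medians of 9713, 6132 and 10156 UMIs. LApc stood apart in quality, since 17.7% of its barcodes had over 20% mitochondrial UMIs and were removed, against 0.541% in WT and 2.38% in LApcL. Pairs of libraries shared 214 to 318 barcodes. Levels are given in CPM, a gene's UMIs as a part of all UMIs of the cells summed, scaled to the same fixed total. *Lef1* stood at 21.6 CPM in the adenoma-enriched cells of LApc and at 3.55 CPM in those of LApcL. *Apc* UMIs were no lower in the floxed libraries, since the Wnt/TA-like cells held 19.5 CPM (WT), 22.3 CPM (LApc) and 25.0 CPM (LApcL). A transcript that lacks a floxed exon can still give a 3′ UMI, so this level does not check the deletion.

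Cells were grouped without any Reg gene among the clustering features. The 8 classes compared between all libraries were Car4-high and Apoa4-high enterocyte-like, goblet-like, cycling goblet-like, Paneth-like, enteroendocrine-like, tuft-like and Wnt/TA-like cells (stem and transit-amplifying markers such as *Lgr5* and *Top2a*). Adenoma-enriched cells also carried Wnt/TA markers, together with *Clu*, *Sox17* and *Msx1*, and numbered 3 (WT), 1277 (LApc) and 8723 (LApcL). 1 cluster stayed unnamed.

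On mouse genome build GRCm38 (GENCODE annotation), *Reg1* (ENSMUSG00000059654, chr6:78422711-78428667, plus strand), *Reg3a* (ENSMUSG00000079516, chr6:78380709-78383827, plus), *Reg3b* (ENSMUSG00000071356, chr6:78370657-78373466, plus) and *Reg3g* (ENSMUSG00000030017, chr6:78466269-78468872, minus) are protein-coding neighbours. With *Reg2* and *Reg3d* they make a cluster of 6 genes over 98.2 kb. *Reg4* (ENSMUSG00000027876, chr3:98222156-98236748, plus) lies apart from them on chromosome 3. The stretches upstream of *Reg3b* and *Reg3g*, which went together from enterocyte to enterocyte, and of *Reg4*, which followed another pattern, are given below from 150 to 20 bases before the RefSeq start (131 bases, GRCm38.p6, 5′ to 3′ on the gene's strand). They are chr6:78370735-78370865 (plus), chr6:78468894-78469024 (minus) and chr3:98222006-98222136 (plus). The RefSeq start of *Reg3b* lies downstream of the GENCODE start, so its window falls within the GENCODE gene, mostly in intron, with 5 bases in an exon. Capitals mark TATAAA, searched on both strands, and TTCNNNGAA, the palindromic core that Stat factors recognise.
Reg3b: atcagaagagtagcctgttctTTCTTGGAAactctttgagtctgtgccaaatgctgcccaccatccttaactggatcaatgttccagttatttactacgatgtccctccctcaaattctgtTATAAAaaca
Reg3g: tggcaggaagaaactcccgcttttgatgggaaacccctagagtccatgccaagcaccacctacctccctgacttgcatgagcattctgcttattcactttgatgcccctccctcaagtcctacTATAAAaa
Reg4: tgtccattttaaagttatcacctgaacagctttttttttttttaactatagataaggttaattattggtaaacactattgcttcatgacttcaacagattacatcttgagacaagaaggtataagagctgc

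The *Reg3b* and *Reg3g* windows were 64.3% identical over 129 bases without gaps, whereas the other pairs of the 5 genes reached 33.3 to 39.1%. TATAAA was found in the windows of *Reg1*, *Reg3b* and *Reg3g*, 30, 29 and 27 bases before the start, and in 6.96% of all 32851 RefSeq promoter windows of this length. TTCNNNGAA was found for *Reg3b* alone among the 5, as TTCTTGGAA 129 bases before the start, and in 3.55% of all windows. A match is only a match of letters. The transcripts themselves differ enough to be counted apart. The longest exact run shared by any pair of the 5 genes was 35 bases (*Reg3b* and *Reg3g*), and 19 bases within the last 400 bases, where 3′ reads fall.

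*Reg3b* and *Reg3g* were the most abundant members, and both were enterocyte genes. Car4-high enterocyte-like cells held *Reg3b* at 15455 (WT), 33351 (LApc) and 14053 (LApcL) CPM. In Apoa4-high enterocyte-like cells it stood at 16092, 19258 and 11078 CPM. LApc was the highest library in both classes, by 2.16-fold over WT in the Car4-high cells (log2 ratio 1.11, 95% interval 1.10 to 1.12) and by a log2 ratio of 0.26 in the Apoa4-high cells. In the Car4-high cells of LApc, *Reg3b* alone took 3.34% of all UMIs. In the same cells *Reg3g* stood at 7785 (WT), 12073 (LApc) and 9809.6 (LApcL) CPM, and at 7013, 5499 and 5482 CPM in the Apoa4-high cells. These *Reg3g* levels lay within 1.55-fold of each other in the Car4-high cells and within 1.28-fold in the Apoa4-high cells. The Car4-high cells alone, with 17.6% (WT), 24.5% (LApc) and 6.77% (LApcL) of the UMIs of kept cells, held 56.7%, 63.5% and 53.7% of the *Reg3b* UMIs.

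**Figure D1:**
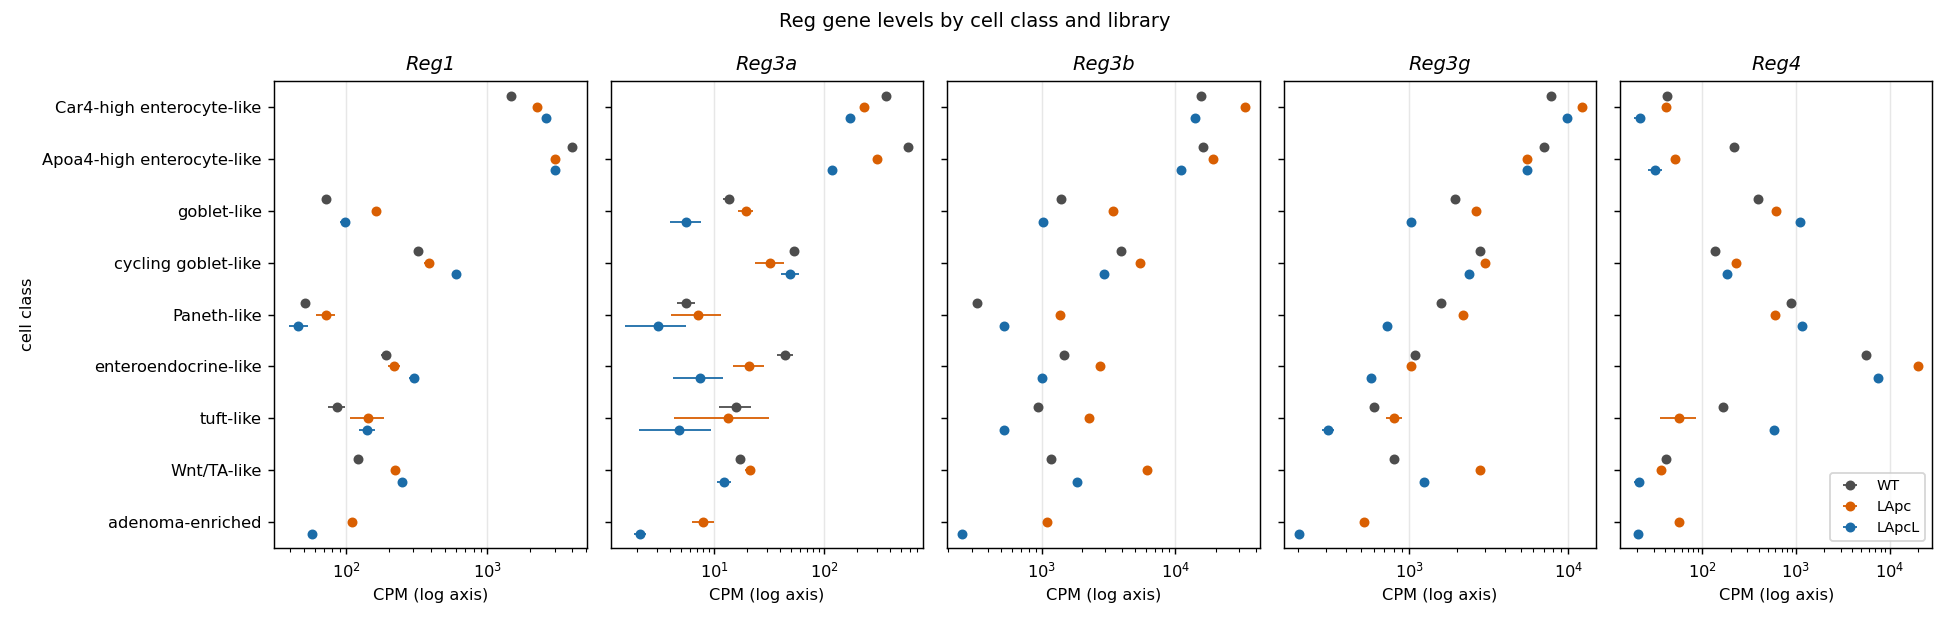
Level of each Reg gene by cell class. The x axes give CPM of UMIs summed over the cells of a class (log axis), points are the WT, LApc and LApcL libraries, and bars are exact 95% Poisson intervals, often narrower than the point. *Reg1*, *Reg3a*, *Reg3b* and *Reg3g* were highest in enterocyte-like cells, and *Reg4* in enteroendocrine-like cells (5622, 19991 and 7473 CPM).

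A gene was counted as different where the CPM of a pair of libraries differed at least 2-fold and the higher was at least 10 CPM. The 3 comparisons share libraries, so their counts are not independent of each other. Nor are the pairs within a comparison, since the same genes of the same libraries recur in each class. Of 39 pairs of a Reg gene and a class that could be counted, 8 were higher in LApc than in WT and 3 lower, where 5.85% and 2.74% of the pairs of all genes were. LApcL was higher than WT in 3 and lower in 7 pairs, against 5.58% and 2.15% of all pairs. LApcL was higher than LApc in 1 and lower in 15 pairs, against 4.45% and 3.33%. The largest excess over the background was thus in pairs lower in LApcL than in LApc, at 38.5% of the members' pairs, and 10 of the 15 were *Reg3b* and *Reg3g*.

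**Figure D2:**
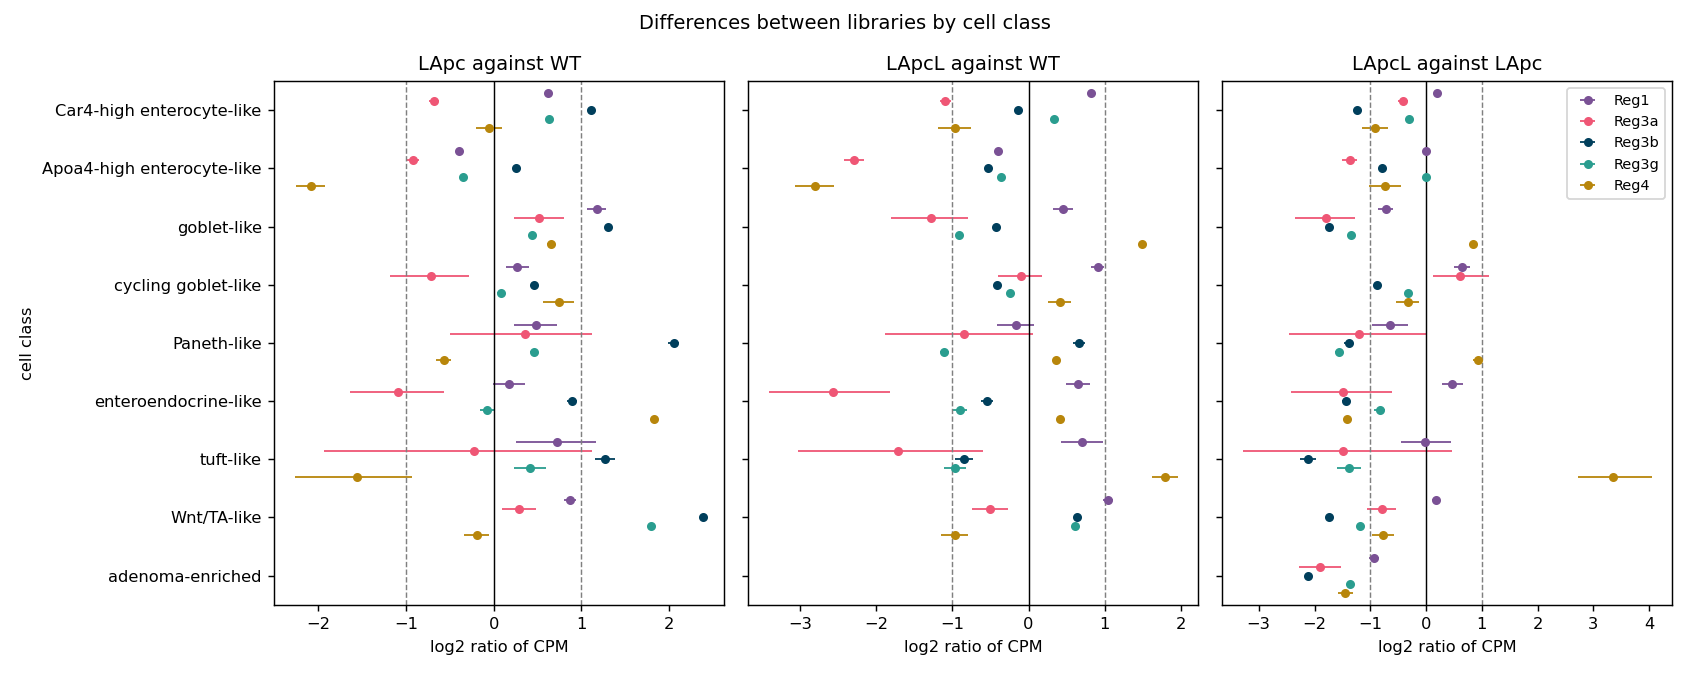
Log2 ratio of CPM for each Reg gene and class in the 3 comparisons. The x axis gives the log2 ratio, bars are exact 95% intervals of counting error, and the dashed lines mark 2-fold. *Reg3b* lay to the right of 0 in LApc against WT (up to 2.38, Wnt/TA-like) and to the left in LApcL against LApc (down to -2.12, tuft-like).

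Outside enterocytes, the widest gap in *Reg3b* between LApc and WT was in the Wnt/TA-like cells of the crypt. *Reg3b* stood there at 1179 (WT), 6142 (LApc) and 1836 (LApcL) CPM. LApc was 5.21-fold above WT (log2 ratio 2.38, 2.36 to 2.40), and LApcL was 3.34-fold below LApc (-1.74, -1.76 to -1.72). *Reg3g* followed with 809, 2799 and 1235 CPM, 3.46-fold higher in LApc than in WT and 2.27-fold lower in LApcL than in LApc, although the last ratio was under 2-fold (-0.88) with clusters at resolution 0.4. The gap was present in both large groups of these cells. In the Lgr5-high group *Reg3b* stood at 679 CPM in WT, 3447 in LApc and 1581 in LApcL, and in the Top2a-high group at 921, 5639 and 2002 CPM. LApcL was thus above WT in both groups, by log2 ratios of 1.22 and 1.12, and below LApc. The summed level of the 9 enterocyte markers in Wnt/TA-like cells was 2557 CPM in WT, 3247 in LApc and 1427 in LApcL, and its part in the *Reg3b* values was not tested.

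LApc was also at the top for *Reg3b* in goblet-like, tuft-like and Paneth-like cells. Goblet-like cells stood at 1387 (WT), 3427 (LApc) and 1029 (LApcL) CPM, tuft-like cells at 933, 2253 and 519 CPM and Paneth-like cells at 329, 1365 and 521 CPM. LApc exceeded WT by 2.47-, 2.41- and 4.15-fold. The median gene of the Paneth-like class was itself higher in LApc than in WT by 0.71 on the log2 scale, and with each cell given to the class of its highest marker score the log2 ratio was -0.15 in place of 2.05. By marker score the log2 ratios were 0.55 in goblet-like and 0.91 in tuft-like cells. Tuft-like cells of LApc numbered 72, and their summed enterocyte markers were also high, at 15351 CPM beside 5628 (WT) and 4623 (LApcL). Cycling goblet-like cells (3914, 5397 and 2924 CPM) and enteroendocrine-like cells (1464, 2729 and 1004 CPM) had LApc at the top too, by less than 2-fold over WT. In *Reg3g*, LApcL stood below the other libraries in Paneth-like cells, with 1574 (WT), 2165 (LApc) and 731 (LApcL) CPM, and was 2.15-fold below WT.

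RNA set free from broken cells gives UMIs in every droplet, and for a gene as abundant as *Reg3b* this background is high. Cells were thinned to 3000 UMIs, and those below that depth were left out. A *Reg3b* UMI was then found in 73.1% of tuft-like cells in WT (95.8% unthinned, median depth 7538.5 UMIs). The shares were 98.5% in LApc (all cells unthinned, 4869 UMIs) and 72.6% in LApcL (88.2%, 5077 UMIs). Car4-high enterocyte-like cells gave 89.7%, 99.2% and 93.3%, and Wnt/TA-like cells 64.6%, 94.3% and 74.1%, with a median UMI number per Wnt/TA-like cell of 10600.5, 7026 and 8823.5. In WT and LApcL the shares of Wnt/TA-like cells were below or close to those of tuft-like cells, so no expression is read from them. In both libraries the *Reg3b* CPM of Wnt/TA-like cells, given above, exceeded that of tuft-like cells, which was 933 (WT) and 519 (LApcL). Tuft-like cells of these libraries also held more enterocyte markers than Wnt/TA-like cells, 5628 against 2557 CPM (WT) and 4623 against 1427 CPM (LApcL). They are thus no clean background. In LApc both shares were near their ceiling and the 72 tuft-like cells carried enterocyte markers, so they give no background level there. Over all kept cells, the pool that free RNA could come from, *Reg3b* stood at 4803 (WT), 12863 (LApc) and 1771 (LApcL) CPM. LApc was highest there too, while LApcL lay below WT, unlike in Wnt/TA-like cells. The part of free RNA in the values of cells other than enterocytes was not tested.

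The 2 bactericidal lectins kept different proportions in different cells. In Car4-high enterocyte-like cells there were 1.99 *Reg3b* UMIs for each *Reg3g* UMI in WT, 2.76 in LApc and 1.43 in LApcL. In Paneth-like cells *Reg3g* was the more abundant of the pair in every library, with ratios of 0.209 (0.203 to 0.215), 0.630 (0.602 to 0.660) and 0.712 (0.671 to 0.756). WT goblet-like cells also held more *Reg3g*, with a ratio of 0.715, whereas LApc goblet-like cells stood at 1.31 and LApcL at 1.00. LApc had a higher ratio than the other libraries in each class compared except Paneth-like cells. Among single cells the pair went together most closely in the Car4-high class in each library, of the classes examined. Spearman's rho of the thinned counts was 0.87 (WT, 1901 cells), 0.89 (LApc, 2026 cells) and 0.88 (LApcL, 1085 cells) there. It was 0.82, 0.68 and 0.85 in the Apoa4-high class, 0.35, 0.78 and 0.53 in Wnt/TA-like cells and 0.48, 0.58 and 0.38 in goblet-like cells. Over 423, 130 and 160 Paneth-like cells it was 0.15, 0.22 and 0.35. These values share library, depth and the level of both genes.

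**Figure D3:**
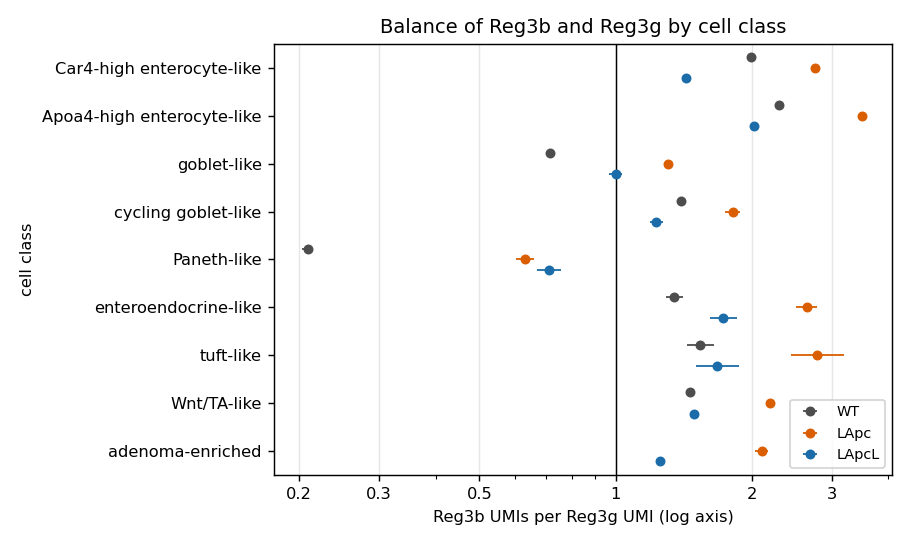
Balance of *Reg3b* and *Reg3g*. The x axis gives *Reg3b* UMIs per *Reg3g* UMI (log axis) in each class, points are libraries and bars exact 95% intervals. Points left of the vertical line at 1 have more *Reg3g*, as all 3 Paneth-like sums do (0.209, 0.630 and 0.712).

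Enterocytes were then divided into 8 groups at resolution 0.8, named by a leading gene, a division chosen after the data had been seen. *Lct* (lactase) and *Slc40a1* (the iron exporter ferroportin) are known from the upper small intestine, and *Fabp6* encodes the ileal bile acid binding protein. Among WT groups *Reg3b* was highest in Fabp6-high cells at 48622 CPM, followed by Gsdmc2-high (25200.2 CPM) and Fam151a-high cells (20034 CPM), and lowest in Ccnb2-high cells (1852 CPM), in which *Ccnb2*, a gene of dividing cells, was among the leading genes. *Reg3b*, *Reg3g* and *Reg1* were not used to form the groups, although *Reg3g* and *Reg3b* were among the leading genes of Fam151a-high and *Reg1* of Papss2-high cells. In LApcL the order was different. Papss2-high cells were its highest group at 20864 CPM, Fabp6-high cells stood at 13292 CPM and Gsdmc2-high cells at 6102 CPM. LApc held high levels in each of these groups, with 63470.5 CPM in Fam151a-high, 53035 in Fabp6-high, 47379 in Gsdmc2-high and 20077 in Papss2-high cells.

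The WT and LApcL libraries, both of day 21, differed in opposite directions between groups. *Reg3b* in Papss2-high cells stood at 4240 CPM in WT, 20077 in LApc and 20864 in LApcL, and the log2 ratio of LApcL to WT was 2.30 (2.28 to 2.32). *Reg3g* in the same cells stood at 2012, 4540 and 12074 CPM, with a log2 ratio of 2.59 (2.56 to 2.61) to WT and 1.41 to LApc. In Fabp6-high cells LApcL lay below WT, by log2 ratios of -1.87 (-1.89 to -1.85) for *Reg3b* and -1.35 (-1.38 to -1.32) for *Reg3g*. The *Reg3g* levels there were 21470 CPM in WT, 18552 in LApc and 8413 in LApcL. Lct-high cells resembled the Papss2-high ones in direction for *Reg3b*, with 7332, 21828 and 14383 CPM, and Ccnb2-high cells had 1852, 11149 and 6919 CPM. In these 3 groups both floxed libraries stood above WT, LApc by 2.98- to 6.02-fold and LApcL by 1.96- to 4.92-fold.

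Over 40 pairs of a Reg gene and an enterocyte group, 10 were higher and 10 lower in LApc than in WT, against 4.16% and 6.23% of the pairs of all genes. LApcL was higher than WT in 7 and lower in 17, against 7.22% and 3.84%, and higher than LApc in 2 and lower in 16, against 9.2% and 3.38%. These pairs are not independent either, since the same genes and libraries recur in each group. Other genes of these groups moved as well. *Fabp6* itself stood in Fabp6-high cells at 78147 CPM in WT, 32190 in LApc and 33226 in LApcL, and the 4 ileal markers summed to 17147, 5955 and 2945 CPM in Car4-high cells. The position along the gut from which the cells of a group came was not recorded for single cells, and its part in the *Reg3b* and *Reg3g* values was not tested. With the groups weighted to the WT mix, *Reg3b* in all enterocyte-like cells stood at 15649.5 (WT), 32687 (LApc) and 13234 (LApcL) CPM. LApc was thus the highest library at an equal mix of groups as well.

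**Figure D4:**
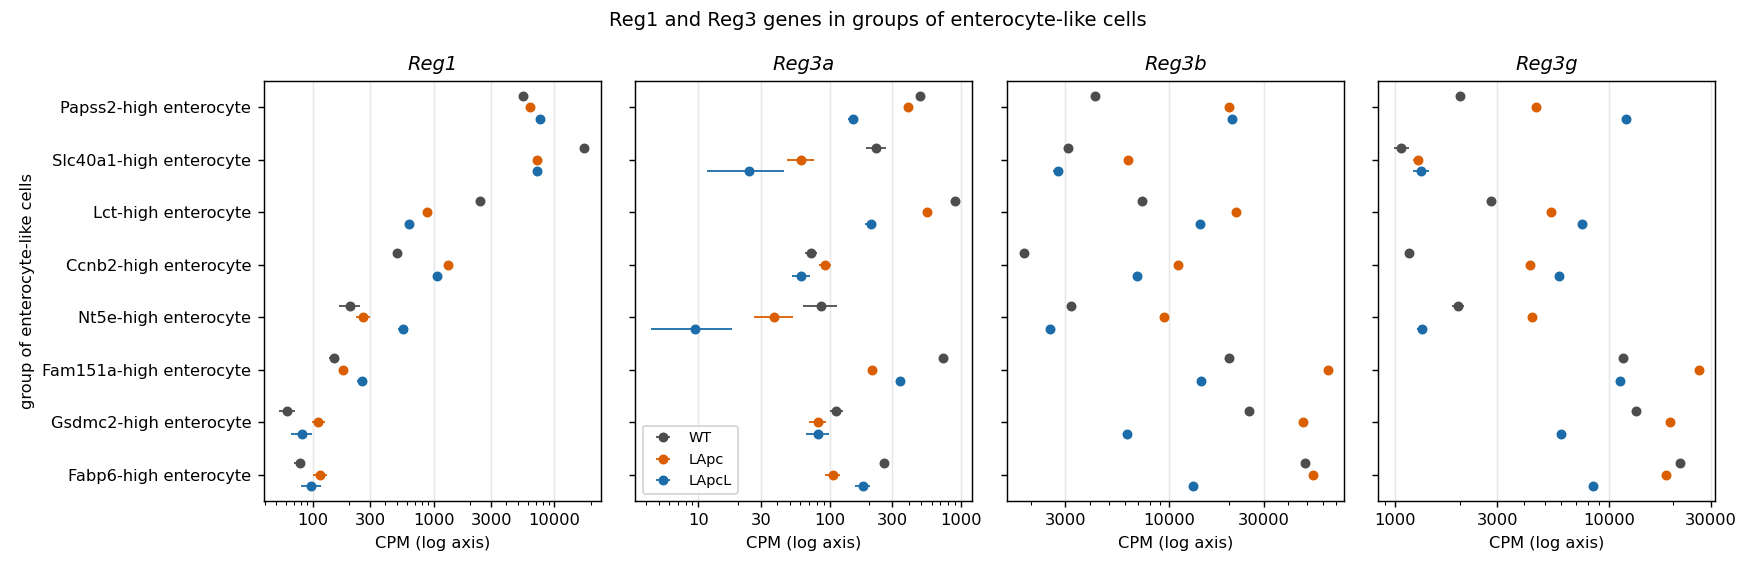
*Reg1*, *Reg3a*, *Reg3b* and *Reg3g* in 8 groups of enterocyte-like cells. The x axes give CPM (log axis), points are libraries and bars exact 95% Poisson intervals. *Reg3b* of LApcL lay above WT in Papss2-high cells (20864 against 4240 CPM) and below it in Gsdmc2-high cells (6102 against 25200.2 CPM).

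*Reg1* was likewise an enterocyte gene, with its peak in other cells than *Reg3b*. In Apoa4-high enterocyte-like cells it stood at 3978 CPM in WT, 3037 in LApc and 3024 in LApcL, and in Car4-high cells at 1467, 2262 and 2592 CPM. Neither class differed by 2-fold between libraries. Among the groups it was highest in Slc40a1-high cells, whose leading genes over all libraries together included iron uptake genes. *Reg1* stood there at 17661 CPM in WT (63 cells), 7210 in LApc (249 cells) and 7156 in LApcL (55 cells). WT was the high library there, by a log2 ratio of LApc to WT of -1.29 (-1.33 to -1.25). This group also changed in its own markers, since *Cybrd1*, the duodenal iron reductase, was at 0 CPM in WT and at 1665 and 1693 CPM in LApc and LApcL. In Lct-high cells *Reg1* stood at 2419.7 CPM in WT, 888 in LApc and 632 in LApcL, whereas in Ccnb2-high cells it was at 498, 1327 and 1062 CPM. *Reg1* was low in the Fabp6-high cells that led for *Reg3b* in WT, at 77.9, 115 and 97.3 CPM. Across single Car4-high cells, *Reg1* and *Reg3b* had a Spearman's rho of -0.30 in WT (1901 cells), -0.30 in LApc (2026 cells) and 0.15 in LApcL (1085 cells).

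*Reg3a* had the lowest level over all kept cells of the 5 genes, at 116 CPM in WT, 103 in LApc and 19.2 in LApcL, and was lower in the floxed libraries in both enterocyte-like classes. In Apoa4-high enterocyte-like cells it stood at 574 CPM in WT, 303 in LApc and 117 in LApcL, and in Car4-high cells at 368, 230.2 and 173 CPM. LApcL was 4.89-fold below WT in the first class (log2 ratio -2.29, -2.42 to -2.16) and 2.13-fold in the second (-1.09, -1.17 to -1.02), although the second was under 2-fold (-0.95) when ribosomal protein and mitochondrial genes were left out of the total. WT was the highest library in 7 of the 8 enterocyte groups. In Lct-high cells the values were 903, 549 and 206 CPM, and in Papss2-high cells 485, 397 and 149.7 CPM, so that *Reg3a* was lower in LApcL in the same Papss2-high cells in which *Reg3b* and *Reg3g* were higher than in WT. In goblet-like, tuft-like and enteroendocrine-like cells it stood at 4.77 to 44.0 CPM, levels that rest on few UMIs.

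*Reg4* belonged to secretory cells. It was highest in enteroendocrine-like cells, the hormone-making cells, with 5622 CPM in WT, 19991 in LApc and 7473 in LApcL. LApc was the high library, 3.56-fold over WT (log2 ratio 1.83, 1.80 to 1.86), and LApcL was 2.68-fold below LApc (-1.42, -1.45 to -1.39). The second ratio was under 2-fold with cells thinned to 3000 UMIs (-0.73) and with doublets removed at 2 times the expected rate (-0.81). Thinning left out cells below 3000 UMIs, which were 0 of 326 in WT, 222 of 513 in LApc and 25 of 362 in LApcL. The median depth of the class was 9323 (WT), 3280 (LApc) and 4580.5 (LApcL) UMIs. This class held 36.0% (WT), 80.5% (LApc) and 48.9% (LApcL) of all *Reg4* UMIs. Within it, *Reg4* sat mostly in Tph1-high cells, where *Tph1* encodes the enzyme that starts serotonin synthesis and marks enterochromaffin cells. Their *Reg4* stood at 25919 CPM in WT (64 cells), 56076 in LApc (213 cells) and 20376 in LApcL (131 cells). Tac1-high cells also had *Top2a* and *Mki67*, genes of dividing cells, among their leading genes. They stood at 1058 (64 cells), 9794 (48 cells) and 1620.1 CPM (31 cells), with LApc far above WT and LApcL. Neurog3-high precursor cells stood at 311, 1224 and 73.9 CPM. Not every group had LApc at the top. Gip-high cells, which make the incretin GIP, stood at 139.7, 65.9 and 24.4 CPM, with LApc 2.12-fold below WT (log2 ratio -1.08, -1.82 to -0.40) and LApcL 5.72-fold below WT. Sst-high cells, which make somatostatin, stood at 183, 191 and 53.8 CPM on 5 to 31 UMIs. Gcg-high cells, which make glucagon-like peptides, had 337, 322 and 336 CPM and did not differ beyond counting error, with an interval of the log2 ratio of LApc to WT from -0.38 to 0.24. Tph1-high cells were also the largest group of the class in LApc. At the WT mix of groups the class stood at 5622, 13887 and 4588 CPM, and LApc was still the highest. LApcL lay below WT at this mix, whereas it lay above WT without the weighting.

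**Figure D5:**
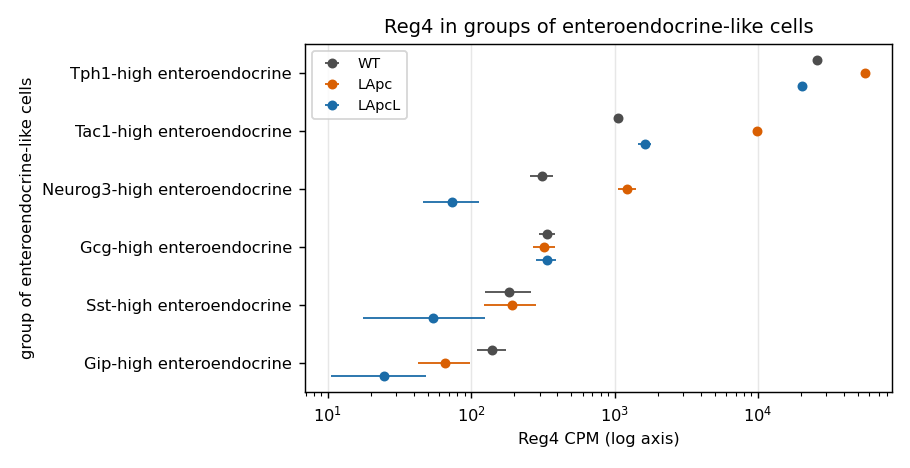
*Reg4* in 6 groups of enteroendocrine-like cells. The x axis gives CPM (log axis), points are libraries and bars exact 95% Poisson intervals. Tph1-high cells were highest in each library (25919, 56076 and 20376 CPM) and Gcg-high cells lay close together (337, 322 and 336 CPM).

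Paneth-like and goblet-like cells carried *Reg4* at lower levels. Paneth-like cells, which secrete defensins and lysozyme at the crypt base, stood at 891 (WT), 599.8 (LApc) and 1149 (LApcL) CPM. Against WT, the median gene of this class was itself higher, by 0.71 (LApc) and 0.82 (LApcL) on the log2 scale. TMM scaling shifted the log2 ratios of LApcL to WT in this class by -0.80. No rise of *Reg4* over WT is therefore read from the LApcL level. Goblet-like cells, which make mucus, stood at 392, 617 and 1106 CPM, and LApcL was 2.82-fold above WT (interval of the log2 ratio 1.45 to 1.54), with a log2 ratio of only 0.65 with each cell classed by its highest marker score. *Reg4* was uneven among goblet-like cells. It reached 5 UMIs or more in 427 of 2490 (WT), 126 of 1561 (LApc) and 159 of 946 (LApcL) cells, and the 12 Paneth markers were higher in those cells, at 57458 against 14936 CPM in WT, 72592 against 7155 in LApc and 107027 against 15526 in LApcL. The part of doublets or free RNA in this was not tested. In tuft-like cells *Reg4* stood at 166, 56.3 and 574 CPM, but 923 of the 964 UMIs of LApcL lay in 10 cells, and leaving out the top 1% of cells turned the log2 ratio of LApcL to LApc from 3.35 to -0.53. Apoa4-high enterocyte-like cells of WT had 217 CPM, of which the top 1% of cells held 72.4%. LApc stood at 51.3 and LApcL at 30.9 CPM, and the log2 ratio of LApc to WT was -2.08 with all cells and -0.54 without the top 1%.

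In enterocytes and crypt cells few cells had *Reg4*. After thinning, a *Reg4* UMI was found in 11.4% (WT), 10.2% (LApc) and 6.08% (LApcL) of Car4-high enterocyte-like cells, in 16.04%, 12.1% and 6.67% of Apoa4-high cells, in 12.6%, 9.74% and 6.03% of Wnt/TA-like cells, and in 13.8% (LApc) and 5.83% (LApcL) of adenoma-enriched cells. The shares of Car4-high and Wnt/TA-like cells were close to each other in each library, and no expression is read from them. Paneth-like cells gave 85.8%, 70.0% and 77.5%. The level of free RNA was not measured.

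The study compared LApc and LApcL in an adenoma cluster of its own, found by another method, so its cells need not be those counted here. The adenoma-enriched cells of this report were poor in Reg transcripts. *Reg3b* stood there at 1098 CPM in LApc and 254 CPM in LApcL, *Reg3g* at 522 and 203 CPM, *Reg1* at 109 and 57.2 CPM, *Reg4* at 56.1 and 20.6 CPM and *Reg3a* at 7.98 and 2.13 CPM. Each gene was lower in LApcL. The ratios were 4.33-fold for *Reg3b* (log2 ratio -2.11, -2.14 to -2.08) and 2.57-fold for *Reg3g* (-1.36, -1.41 to -1.32). Of the 4 members at 10 CPM or more, 3 were at least 2-fold lower in LApcL and 0 higher, against 8.11% and 0.828% of all genes. The third was *Reg4*, with a log2 ratio of -1.45, or -0.98 with each cell classed by its highest marker score, which left 2 of the 4. The class lay in 6 groups at resolution 0.8, in different proportions in the 2 libraries. Wfdc18-high cells were the largest group in LApc (483 of 1277 cells) and Il1rn-high cells in LApcL (2532 of 8723 cells). *Reg3b* was lower in LApcL in each group, from 3.23-fold in Top2a-high cells (775 against 240 CPM) to 5.94-fold in Il1rn-high cells (1439 against 242 CPM). *Reg3g* was lower by 1.58-fold (Atp4a-high cells) to 4.25-fold (Il1rn-high cells), and under 2-fold in the Atp4a-, Top2a- and S100g-high cells. With LApcL weighted to the LApc mix of groups, *Reg3b* stood at 1098 against 259.8 CPM and *Reg3g* at 522 against 211 CPM. *Reg3b* of these cells was the lowest of all classes in LApc and in LApcL. Their thinned shares of cells with a *Reg3b* UMI, 88.4% (LApc, 99.1% unthinned) and 49.7% (LApcL, 89.99%), lay below the 98.5% and 72.6% of tuft-like cells. No expression is read from the LApcL share, and the LApc tuft-like cells give no background level, as above. The 9 enterocyte markers summed to 2443 CPM in the LApc cells and 919 CPM in the LApcL cells, so they moved with *Reg3b*, and immune markers stood at 73.6 and 1.63 CPM. The part of either in the difference was not tested.

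Genes of the signalling known to induce *Reg3b* and *Reg3g*, and known targets of IL-22 and IL-17, were counted in the same cells. The lists were chosen with earlier results of these data known, and a role of this signalling in the Reg values was not tested. In the adenoma-enriched cells, 8 of 15 IL-22 and IL-17 target genes at 10 CPM or more were at least 2-fold lower in LApcL than in LApc and 0 higher, with a median log2 ratio of -1.19. Of all genes 8.11% were lower and 0.828% higher, and their median was -0.10. *Lcn2*, which encodes a siderophore-binding protein, stood at 0.388 CPM in LApcL and 215 in LApc, and *Lrg1* at 0.397 and 167 CPM. *Cxcl2*, a neutrophil chemokine, stood at 0.454 and 13.9 CPM, and *Sprr1a* at 13.7 and 47.2 CPM. *Lcn2* and *Lrg1* were among the leading genes of the Wfdc18-high group, which held 1071 of 8723 cells in LApcL and 483 of 1277 in LApc. The list values were not weighted to an equal mix of groups, and the part of the mix was not tested. Against the same background, 4 of 13 interleukin and Stat3 signalling genes were lower (8.11% of all genes) and 0 higher (0.828%), with a median of -0.68. They were *Socs3*, the feedback inhibitor of Stat3, at 4.63 against 27.5 CPM, *Il18* (also in the target list) at 13.8 against 37.3, *Il11ra1* at 8.72 against 23.1 and *Nfkbiz* at 9.72 against 22.2. Among 8 other antimicrobial lectins and proteins, 5 were lower (8.11% of all genes) and 1 higher (0.828%), with a median of -1.31. *Pglyrp1* was at 146 against 966 CPM and *Zg16*, a lectin of goblet cells, at 310.03 against 1111, while *Lyz1*, the Paneth lysozyme, was higher, at 734 against 238 CPM.

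In Wnt/TA-like cells, where *Reg3b* differed 5.21-fold between LApc and WT, 1.25% of all genes were higher and 0.909% lower in LApc, with a median log2 ratio of 0.01. Of 8 signalling genes 0 were higher or lower, with a median of 0.04. Of 10 target genes, 2 were higher, *Sprr2a3* (20.1 against 1.34 CPM) and *Pla2g5* (21.7 against 7.23 CPM), with a median of 0.27. Of 8 antimicrobial lectins and proteins, 4 were lower and 1 higher, with a median of -1.15. *Mptx2*, a pentraxin of Paneth cells, stood at 7.40 (LApc) against 36.8 CPM (WT) and *Itln1* at 47.3 against 228. The ribonuclease gene *Ang4* stood at 20.6 against 81.8 and *Lyz1* at 40.3 against 149.9. The 12 Paneth markers, *Mptx2*, *Ang4* and *Lyz1* among them, summed to 1875 (LApc) against 6164 CPM (WT) in these cells. Their sum was also lower in Car4-high enterocyte-like cells (1756 against 5765 CPM) and tuft-like cells (3532 against 7870 CPM). Paneth-like cells held 3.59% of the UMIs of LApc and 15.9% of those of WT. The part of free RNA was not tested.

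In Fabp6-high enterocytes, where *Reg3b* and *Reg3g* were lower in LApcL than in WT, 8.47% of all genes were higher and 2.04% lower, with a median of 0.20. There 6 of 11 target genes were lower and 1 higher, with a median of -1.11, 2 of 12 signalling genes were lower and 0 higher, with a median of -0.12, and 3 of 8 antimicrobial genes were lower and 0 higher, with a median of -0.68. *Duox2*, an epithelial peroxide-producing oxidase, stood at 19.5 against 130.5 CPM and its partner *Duoxa2* at 17.03 against 99.8 CPM. In Papss2-high enterocytes, where both lectins were higher in LApcL, 2.20% of all genes were higher and 2.46% lower, with a median of -0.04. There 3 of 9 target genes were higher and 1 lower, with a median of 0.26. *Sprr2a3* was at 158 against 2.85 CPM, *Duox2* at 13.6 against 5.70 and *Duoxa2* at 18.2 against 8.83. The other lists did not go the same way, since 4 of 8 antimicrobial genes were lower and 0 higher, with a median of -0.95, and 1 of 10 signalling genes (*Il18*, 126 against 264 CPM) was lower and 0 higher, with a median of -0.06. *Mptx2* (3.69 against 40.9 CPM), *Itln1* (38.3 against 215) and *Zg16* (322 against 1583) were among those lower. The counts are descriptions of these libraries and were not tested against other lists. The part of free RNA in the list values of any of these cells was not tested either.

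Over the 26 sums of a library and a class, the genes whose level followed each lectin most closely were taken by Pearson's r of log2(CPM + 10). The sums share libraries and depth, and r is a description. For *Reg3b* these were *Bche*, *St3gal4* and *Naip1* (0.95 each), *Smlr1* and *Slc26a3* (0.94 each), and for *Reg3g* they were *Reg3b* (0.90), *Ces1f* (0.89), *St3gal4* (0.88), *Naip1* and *Bcl2l15* (0.87 each). *Reg3a* ran closest to *Slc51a* and *Slc51b*, the subunits of the basolateral bile acid exporter (0.98 each), then *Slc7a9*, *Maob* and *Hkdc1* (0.97 each). *Reg1* ran with *Chp2*, *Enpep*, *Tubal3*, *Smlr1* and *Ces2e* (0.96 each), and *Reg4* with *Wnt3*, *Unc5a* (0.88 each), *Ptprn2* (0.86), *Dnajc12* and *Slc18a1* (0.85 each). The last is the vesicular monoamine transporter of enterochromaffin cells. Among the members, r was 0.93 for *Reg1* and *Reg3a*, 0.90 for *Reg3a* and *Reg3b*, and -0.38 to -0.31 for *Reg4* with the others. The remaining Reg genes of the cluster were nearly silent, with *Reg2* at 0.0992 to 0.464 CPM over all kept cells. *Extl3*, which encodes a receptor of Reg proteins, stood in Wnt/TA-like cells at 6.18 CPM in WT, 7.53 in LApc and 5.85 in LApcL, and in adenoma-enriched cells at 16.7 (LApc) and 12.1 (LApcL) CPM. *Egfr*, the receptor of epidermal growth factor, stood at 11.7, 10.3 and 8.22 CPM and at 8.87 and 8.09 CPM in these cells.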

How the data were processed

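Small-intestinal epithelium of 3 mice (WT, LApc and LApcL, 1 library each) was sorted for EpCAM and profiled with 10x Genomics 3′ chemistry. The authors aligned reads and counted UMIs with Cell Ranger 2.1.1 on mm10 (GRCm38), and the deposited matrices hold raw UMI counts per gene and barcode. The 5 members and all gene lists were chosen with earlier results of these data known.

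Barcodes in the lowest and highest 1% by detected genes, and those with over 20% mitochondrial UMIs, were removed. Doublets were removed by the highest Scrublet scores (scanpy 1.11.5) at rates expected from the number of barcodes (9.16, 10.6 and 13.9%), that is 1023 (WT), 1135 (LApc) and 2326 (LApcL) cells. Cells were clustered in Seurat 5.3.0 (R 4.3.3; CCA integration, 20 principal components, resolution 0.2) on 935 genes, with 71 Reg and list genes left out, and each cluster was named from at least 3 raised markers. Adenoma-enriched cells were Wnt/TA-like clusters in which WT gave under 10% of cells after weighting. UMIs were summed per library and class and divided by their total (CPM) in Python 3.11.15 (numpy 2.4.6, scipy 1.17.1, pandas 2.3.3), with exact Poisson, conditional binomial and Clopper-Pearson 95% intervals, which cover counting error only. Classes needed 50 cells, and a count of 0 allows up to 3 UMIs. The ratio step was tested on simulated counts.

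The Reg genes were always named, as were at most 4 genes per list and comparison (largest log2 ratio past 2-fold) and the 5 genes most correlated with each member. Alternatives were resolution 0.4, classes by the highest marker score, a mitochondrial limit of 10%, doublets at 2 times the rate, a total without ribosomal protein and mitochondrial genes, TMM scaling (edgeR 4.0.16), no minimum CPM, thinning to 3000 UMIs, and leaving out the top 1% of cells. Thinning to 3000 UMIs left out cells below that depth. Groups at resolution 0.8, and weighting to an equal mix of them, were added after the data had been seen.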

Additional observations from a re-analysis of the deposited data

Results flagged for a closer look

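Some members were at least 2-fold higher in one class or group and at least 2-fold lower in another under the same comparison. These differences between classes were not tested, since each library stands alone.

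*Reg4* in LApc against WT had a log2 ratio of 1.83 in enteroendocrine-like and -2.08 in Apoa4-high enterocyte-like cells. In LApcL against LApc it was 3.35 in tuft-like and -1.42 in enteroendocrine-like cells, and in LApcL against WT 1.79 in tuft-like and -2.81 in Apoa4-high enterocyte-like cells. In LApcL, 10 tuft-like cells held 923 of 964 UMIs, and without the top 1% of cells the tuft-like ratios were -0.53 and -0.52. The Apoa4-high ratio of LApc to WT was -0.54 without the top 1% of cells. Most *Reg4* UMIs of the WT cells of this class lay in that top 1%, and the same WT cells enter the ratio of LApcL to WT. That ratio stayed past 2-fold without the top 1%. *Reg1* in LApc against WT was 1.41 in Ccnb2-high and -1.45 in Lct-high enterocytes, and in LApcL against WT 1.45 in Nt5e-high and -1.94 in Lct-high enterocytes.

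*Reg3b* in LApcL against WT was 2.30 in Papss2-high and -2.05 in Gsdmc2-high enterocytes. *Reg3g* in the same comparison was 2.59 in Papss2-high and -1.35 in Fabp6-high enterocytes, and in LApcL against LApc 1.41 in Papss2-high and -1.71 in Nt5e-high enterocytes.

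The unnamed cluster, which no comparison used and whose leading genes included *Ccl5*, *Hbb-bs* and *Gzma*, held Reg transcripts too. Its LApc cells stood at 1872 CPM for *Reg1*, 12039 CPM for *Reg3b* and 3970 CPM for *Reg3g*, against 588, 4799.6 and 3412 CPM in its WT cells.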

How the results depend on the processing

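No paired analysis was possible because each genotype had 1 library. The count of 15 pairs lower in LApcL than in LApc, and the counts in adenoma-enriched cells, stayed within 1.5 times under each alternative run. Of the other counts of pairs past 2-fold, 8 higher in LApc than in WT became 4 by the highest marker score, and 3 lower became 6 at resolution 0.4 and 0 without the top 1% of cells. For LApcL against WT, 3 higher became 9 at resolution 0.4, and 7 lower became 11 at resolution 0.4 and 11 with TMM scaling. For LApcL against LApc, 1 higher became 3 at resolution 0.4 and 2 with doublets at 2 times the expected rate.

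Calls kept were 40 of 40 with TMM scaling and with no minimum CPM, 51 of 51 at the 10% mitochondrial limit, 54 of 55 without ribosomal protein and mitochondrial genes, 52 of 55 thinned, 48 of 55 without the top 1% of cells, 46 of 48 at the higher doublet rate, 32 of 33 at resolution 0.4 and 20 of 33 by marker score. Log2 ratios that changed sign by marker score were *Reg1* in Wnt/TA-like cells (LApcL against WT, -0.074), *Reg3a* in goblet-like cells (LApcL against LApc, 0.040) and *Reg3b* in Paneth-like cells (LApc against WT, -0.15). *Reg3a* in enteroendocrine-like cells (LApc against WT) became 0.20 at the higher doublet rate. Without the top 1% of cells, *Reg4* in tuft-like cells became 0.012 (LApc against WT), -0.53 (LApcL against LApc) and -0.52 (LApcL against WT). The cause of the other changes was not tested. No depth setting stands in for replicates: the spread between mice is unknown.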
